A study of Mus musculus with 2 samples.

Results

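The genes described here are 10 genes of the NRF2 pathway and of antioxidant defence, chosen by name: Nfe2l2, Keap1, Nqo1, Gclc, Gclm, Txnrd1, Srxn1, Osgin1, Cbr3 and Prdx1. They were read in the livers of a Tmprss6-deficient mouse and of a control mouse. Every probe set that the platform annotation assigns to one of these symbols alone was taken, and 18 probe sets of 9 genes qualified, among 18193 genes named in this way. Prdx1, which encodes a peroxiredoxin that reduces hydrogen peroxide, had no such set: its 5 probe sets are all shared with the predicted gene Gm21399, and it has no value here.

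Both mice were 3-month-old males of the 129Sv/C57BL6 background whose livers were taken after fasting overnight. The Tmprss6-deficient group held 1 animal, made by gene targeting and labelled Tmprss6-/-, and the control group held 1 animal whose genotype is not spelled out in the labels. Tmprss6 encodes matriptase-2, a protease of the hepatocyte surface that restrains hepcidin, and the study asked how its loss alters liver transcripts. Since each genotype has 1 array, no replicate error exists and nothing can be tested, and each difference below is one between these livers. The number of arrays limits the precision.

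NRF2, the product of Nfe2l2, is a transcription factor that cells hold at a low level by degrading it. KEAP1 binds NRF2 and passes it to a ubiquitin ligase, and oxidants or electrophiles that react with cysteines of KEAP1 let NRF2 accumulate. NRF2 then pairs with small MAF proteins on antioxidant response elements near genes for glutathione synthesis, thiol reduction, quinone reduction and NADPH supply. In liver the pathway is known for its part in handling drugs and oxidative stress, and iron is a source of such stress.

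Signals were summarised by MAS5 on a linear scale in arbitrary units. A floor of 17.8, the median over all probe sets of both arrays, stands in for detection: a probe set is called measured in both livers when both signals reach it, and a gene counts as measured in a list when either does. Ratios are Tmprss6-deficient over control, and a probe set was counted as different at 1.5-fold or more, a log2 ratio of 0.585 in size. As an error, the files offer how far the ratios of probe sets of one gene scatter, here as an SD on the log2 scale. It was 0.44 for mean signals from 17.8 to 64, 0.35 from 64 to 256, 0.26 from 256 to 1024 and 0.16 above 1024, and it leaves out variation between animals. Each SD averages over the brighter and the dimmer set of a pair, so it may understate the scatter of dim sets.

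On the targeted gene, Tmprss6 read 88.1 in the Tmprss6-deficient liver and 1868 in the control liver, 21.2-fold lower, in the direction of the labels. The tissue matched its markers: 7 of 8 hepatocyte markers had a probe set of their own, all of them measured in both livers, with Alb at 27850.5 in the Tmprss6-deficient liver and 29345 in the control liver. Of these hepatocyte markers 1 passed 1.5-fold upward and 0 downward. Hnf4a was 1.54-fold higher, with all 4 of its sets higher, and Tat had a log2 ratio of -0.56. Whole liver holds other cell types, and for any gene fewer cells of a type and less RNA per cell cannot be told apart. Macrophage (Kupffer cell) markers summed to 2221 in the Tmprss6-deficient liver and 3039.5 in the control liver over 7 of 7 genes, of which 1 passed 1.5-fold upward and 3 downward. In the Tmprss6-deficient liver, endothelial markers summed to 1127, stellate cell markers to 2474 and neutrophil markers to 152.5, against 1232, 2502 and 172 in the control liver, over 7 of 7, 7 of 7 and 5 of 6 genes. Erythroid markers summed to 260.6 in the Tmprss6-deficient liver and 673 in the control liver over 4 of 6 genes, while cholangiocyte markers summed to 42.4 in the Tmprss6-deficient liver and 129.6 in the control liver over 5 of 6 genes, and T and B cell markers to 68.8 in the Tmprss6-deficient liver and 43.9 in the control liver over 4 of 5. Every cholangiocyte signal in the Tmprss6-deficient liver lay below the floor, so the sum of 42.4 is one of background readings. In the control liver 4 of these markers reached the floor. Against the floor, Krt19 was at least 2.76-fold and Cldn7 at least 1.63-fold lower in the Tmprss6-deficient liver. Most of the erythroid sum was Alas2, 232 in the Tmprss6-deficient liver and 593.1 in the control liver. The other erythroid markers lay below the floor in the Tmprss6-deficient liver, where Klf1, at 57.5 in the control liver, was at least 3.23-fold lower. Markers that reached the floor in neither liver were Cd3e and Cd3g of T cells, Epb42 of erythroid cells and Sox9 of cholangiocytes. Near-equal sums can hide markers that differ. Past 1.5-fold upward were 1 endothelial, 0 stellate and 2 neutrophil markers, and downward 2, 1 and 1. The widest of these were endothelial Lyve1, 4.71-fold higher, and stellate Acta2, 5.76-fold lower. Of cholangiocyte, erythroid and T and B cell markers 0 were past it upward, and 2, 2 and 0 downward. These marker counts include bounds, from markers below the floor in 1 liver. Over all genes measured in both livers, 7.51% were higher and 8.42% lower. The part of these cell types in the results below was not tested.

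The NRF2 pathway as a group read much the same in both livers. Of the 18 probe sets, 17 were measured in both livers, and of these 14 differed by less than 1.5-fold, 1 was higher and 2 were lower. Among all 17433 named probe sets measured in both livers, 9.62% passed 1.5-fold upward and 7.97% downward, 17.6% in all, so the members' share was that of the background. The median log2 ratio was 0.12 over the 17 sets, against 0.016 over all those probe sets. By gene, taking the brightest probe set of each, 1 of 9 genes (Cbr3) was lower and 0 were higher at that threshold, where 8.42% of all 10243 genes measured in both livers were lower and 7.51% higher, 15.9% in all. The median over the 9 genes was 0.10, against -0.0098 over all genes.

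**Figure D1:**
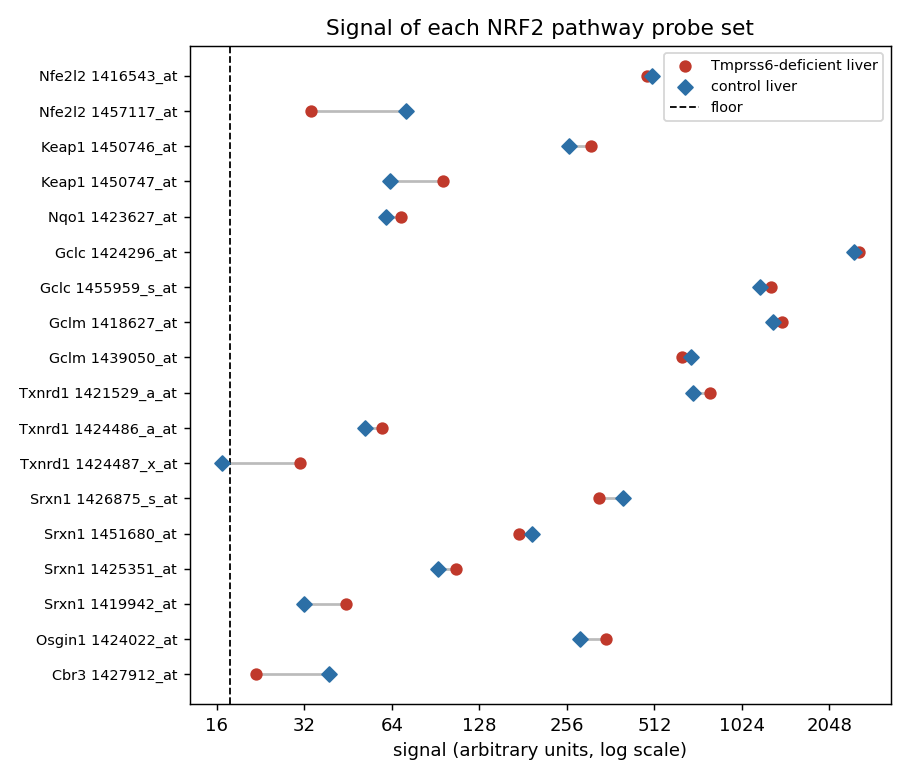
Signal of the 18 probe sets (arbitrary units, log scale) in the Tmprss6-deficient liver (circles) and the control liver (diamonds), 1 array each, with the floor of 17.8 as a dashed line. The symbols nearly coincide for Gclc and Gclm and lie farthest apart for the dim sets of Nfe2l2, Cbr3 and Txnrd1.

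How bright a probe set was bore on how far apart its readings were. All 9 member sets with a mean signal of 256 or more had log2 ratios between -0.27 and 0.30. The 4 sets from 64 to 256 ran from -0.14 to 0.61, and the 4 from the floor to 64 ran from -1.09 to 0.48. All 3 sets counted as different thus lay below a mean of 256, where such calls are also more frequent over the whole array: 14.6% of named sets from 17.8 to 64 were higher and 11.3% lower, and 8.75% and 7.45% from 64 to 256. From 256 to 1024 these shares were 4.69% and 4.14%, and above 1024 they were 3.53% and 4.96%.

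The start sites of these genes are shown next because NRF2 acts through a short DNA element, here searched as TGACNNNGC on both strands of the window from 250 bases before to 50 bases after each annotated start. RefSeq windows of build GRCm38.p6 were at hand for 9 of the 10 genes, Gclc not among them, with 3 windows for Txnrd1. TGACNNNGC occurred in the windows of 5 of 9 member genes (Nfe2l2, Gclm, Txnrd1, Srxn1 and Prdx1), and in 14.0% of 27025 genes with a window. Txnrd1 held it in 1 of its 3 windows, and by window the share was 5 of 11, against 12.4% of all 32851. A second form, TGAGNNNGC, was added after the matches to TGACNNNGC were seen. It occurred in Srxn1, Osgin1 and Prdx1, 3 of 9 genes, against 19.8% of all genes. The members were chosen as NRF2 pathway genes, so no conclusion is drawn from these shares. No match of one form overlapped one of the other in these windows. A match describes letters and is not a bound site, and no match says only that the letters are not in the window. A few windows are printed to set promoters with and without a match beside the expression values: Gclm at chr3:122245307-122245606 (+ strand), Srxn1 at chr2:152105274-152105573 (+ strand), Osgin1 at chr8:119436897-119437196 (+ strand) and Cbr3 at chr16:93682969-93683268 (+ strand). Capitals mark the matches, and a match on the opposite strand appears as its reverse complement.
Gclm: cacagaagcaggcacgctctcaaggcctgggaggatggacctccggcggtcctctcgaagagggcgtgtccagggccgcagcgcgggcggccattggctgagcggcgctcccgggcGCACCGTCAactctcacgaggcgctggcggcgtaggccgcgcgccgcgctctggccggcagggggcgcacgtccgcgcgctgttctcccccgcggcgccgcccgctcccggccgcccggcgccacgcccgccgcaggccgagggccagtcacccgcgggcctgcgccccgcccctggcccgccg
Srxn1: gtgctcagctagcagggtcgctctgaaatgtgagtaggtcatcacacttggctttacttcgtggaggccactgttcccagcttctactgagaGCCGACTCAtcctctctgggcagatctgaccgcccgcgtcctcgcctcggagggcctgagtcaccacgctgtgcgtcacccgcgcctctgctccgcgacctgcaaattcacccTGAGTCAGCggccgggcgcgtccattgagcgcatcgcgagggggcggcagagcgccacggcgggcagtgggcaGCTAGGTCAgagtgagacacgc
Osgin1: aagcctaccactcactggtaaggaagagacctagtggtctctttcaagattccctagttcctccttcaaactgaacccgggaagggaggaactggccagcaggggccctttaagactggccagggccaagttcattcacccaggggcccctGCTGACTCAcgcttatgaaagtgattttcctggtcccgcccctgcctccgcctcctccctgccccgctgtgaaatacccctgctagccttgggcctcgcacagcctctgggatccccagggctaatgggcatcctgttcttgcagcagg
Cbr3: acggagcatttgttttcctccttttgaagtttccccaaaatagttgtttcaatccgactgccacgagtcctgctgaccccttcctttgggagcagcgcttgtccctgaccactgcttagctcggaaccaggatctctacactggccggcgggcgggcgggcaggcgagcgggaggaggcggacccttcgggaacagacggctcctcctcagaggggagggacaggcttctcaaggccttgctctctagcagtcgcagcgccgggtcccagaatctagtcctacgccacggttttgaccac
Gclm had 1 match, to the first form, which began 134 bases before the start. Srxn1 had 3, with the second form at 158 and 45 bases before the start and the first form at 29 bases after it. Osgin1 had 1 match to the second form, TGAGTCAGC when read on the opposite strand, which began 99 bases before the start. Cbr3, the member with the lowest ratio by brightest set, had none in this window. Keap1 and Nqo1 also had none, and their brightest sets had log2 ratios of 0.25 and 0.17. Of the measured members with a match, Nfe2l2 and Srxn1 had -0.059 and -0.27, and Gclm, Txnrd1 and Osgin1 had 0.10, 0.20 and 0.30. A link between matches and ratios was not tested.

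**Figure D2:**
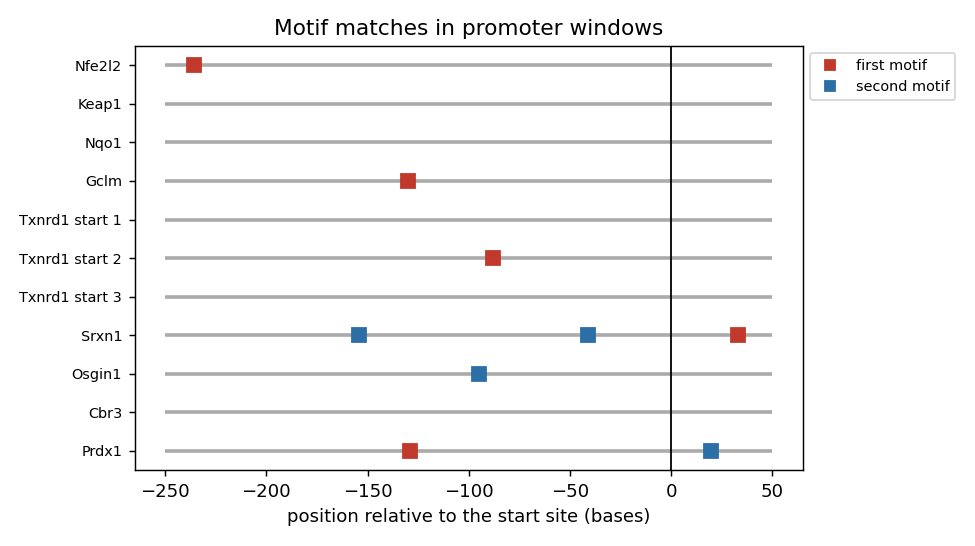
Matches to the first motif (red squares) and the second motif (blue squares) along each member's promoter window, in bases from the start site at 0, with a row for each of the 3 Txnrd1 starts. Srxn1 carried 3 matches, while Keap1, Nqo1 and Cbr3 carried none.

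Among the regulators, Nfe2l2 itself was close between the livers on its bright probe set and lower on its dim one. Set 1416543_at read 482 in the Tmprss6-deficient liver and 502 in the control liver, a log2 ratio of -0.059. Set 1457117_at read 33.7 in the Tmprss6-deficient liver and 71.5 in the control liver, 2.12-fold lower, or -1.09 on the log2 scale. That was the largest difference among the 17 sets measured on both arrays and the only one beyond 2 SDs of the spread between probe sets, while 1.62% of all sets measured in both livers had a lower ratio. The sets shared a direction but differed by 1.03 on the log2 scale, and the transcripts that each one reads are not stated.

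Keap1, the repressor of NRF2, was the member with a set counted as higher. Set 1450746_at read 309.5 in the Tmprss6-deficient liver and 260.2 in the control liver, a log2 ratio of 0.25. Set 1450747_at read 96.1 in the Tmprss6-deficient liver and 63.1 in the control liver, 1.52-fold higher, or 0.61 on the log2 scale, which is just past the threshold and within 2 SDs of the probe set spread. With median scaling, quantile normalization, loess or a pseudocount no member set passed that threshold upward. Both Keap1 sets were higher in the Tmprss6-deficient liver.

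Glutathione synthesis starts with glutamate-cysteine ligase, whose catalytic subunit is encoded by Gclc and whose modifier subunit by Gclm. Gclc read 2582 in the Tmprss6-deficient liver and 2489 in the control liver on 1424296_at, and on 1455959_s_at it read 1286 in the Tmprss6-deficient liver and 1186 in the control liver. Its log2 ratios of 0.053 and 0.12 were both smaller than the SD of 0.16 at that signal, and with the arrays scaled to their medians the brighter set had -0.0035. Gclm read 1405 in the Tmprss6-deficient liver and 1307 in the control liver on 1418627_at, a log2 ratio of 0.10. On 1439050_at it read 637 in the Tmprss6-deficient liver and 681.5 in the control liver, a ratio of -0.097, so its sets differed in sign and each lay within 1 SD of 0. The largest of these differences, on 1455959_s_at, was 1.08-fold.

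Quinone and carbonyl reduction is represented by Nqo1 and Cbr3, each with 1 probe set. Nqo1, the NADPH quinone reductase often used as a readout of NRF2, read 68.8 in the Tmprss6-deficient liver and 61.2 in the control liver, 1.12-fold higher, a log2 ratio of 0.17 against an SD of 0.35. Cbr3, a carbonyl reductase, read 21.8 in the Tmprss6-deficient liver and 39 in the control liver. It was 1.79-fold lower, or -0.84 on the log2 scale, against an SD of 0.44. Of all sets measured in both livers, bright and dim together, 3.46% had a lower ratio. The Tmprss6-deficient signal lay close to the floor of 17.8, and with the floor added as a pseudocount the ratio was -0.52, short of the threshold. Its neighbour and paralog Cbr1 read 808.7 in the Tmprss6-deficient liver and 603 in the control liver, 1.34-fold higher.

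Thiol reduction is represented by Txnrd1, the cytosolic thioredoxin reductase, and Srxn1, the sulfiredoxin that repairs overoxidised peroxiredoxins. Txnrd1 read 797.5 in the Tmprss6-deficient liver and 696 in the control liver on 1421529_a_at, and 59.3 in the Tmprss6-deficient liver and 51.8 in the control liver on 1424486_a_at, a log2 ratio of 0.20 on each. Its dimmest set, 1424487_x_at, read 30.8 in the Tmprss6-deficient liver and 16.6, below the floor, in the control liver, at least 1.73-fold higher against the floor. All 3 sets were higher in the Tmprss6-deficient liver, and the brighter pair lay within 1 SD of 0.

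Srxn1 had 4 probe sets, which split by brightness. The brighter sets, 1426875_s_at and 1451680_at, read 331 and 175.6 in the Tmprss6-deficient liver, against 399 and 193.7 in the control liver, log2 ratios of -0.27 and -0.14. The dimmer sets, 1425351_at and 1419942_at, read 106 and 44.4 in the Tmprss6-deficient liver, against 91.9 and 31.8 in the control liver, ratios of 0.21 and 0.48. No set reached 1.5-fold, and the direction for this gene is not settled by these data. The mean over its sets was 0.069.

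Osgin1, a growth inhibitor gene induced by oxidative stress, read 349 in the Tmprss6-deficient liver and 284 in the control liver on its single probe set. It was 1.23-fold higher, a log2 ratio of 0.30 against an SD of 0.26. Of the 6 genes with more than 1 set, the sets of 4 (Nfe2l2, Keap1, Gclc and Txnrd1) shared a direction and those of 2 (Gclm and Srxn1) did not.

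**Figure D3:**
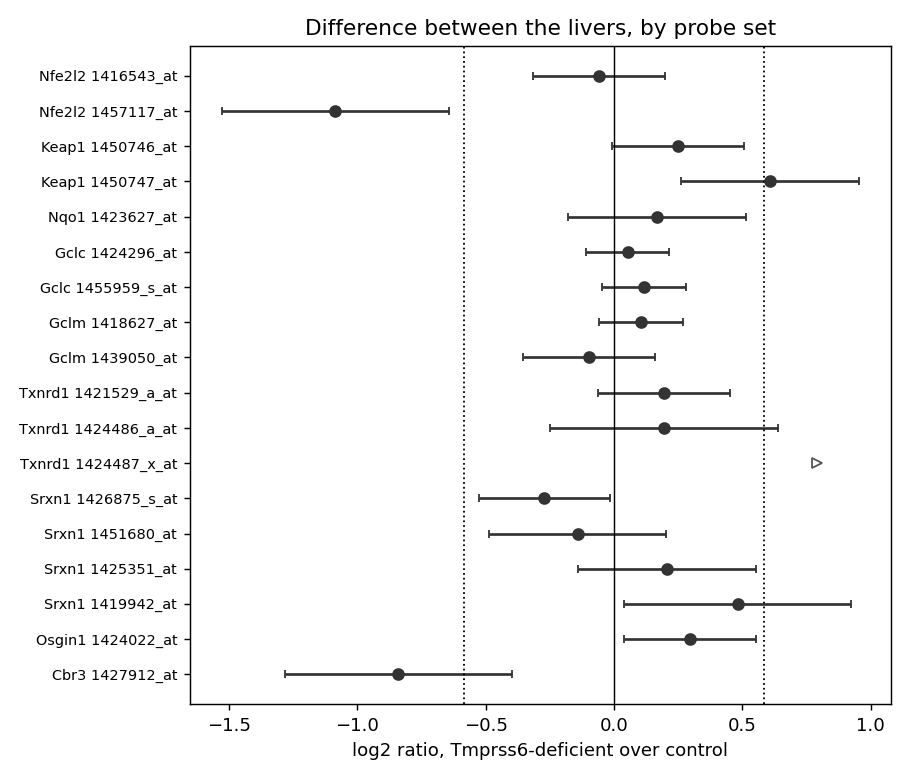
Log2 ratio (Tmprss6-deficient over control) of each probe set, with bars of 1 SD of the spread between probe sets of a gene at that signal, and dotted lines at 1.5-fold. The open triangle is a lower bound for a Txnrd1 set below the floor in the control liver. The dim set of Nfe2l2 and the set of Cbr3 lie past the lower line, and a Keap1 set just past the upper one.

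**Figure D4:**
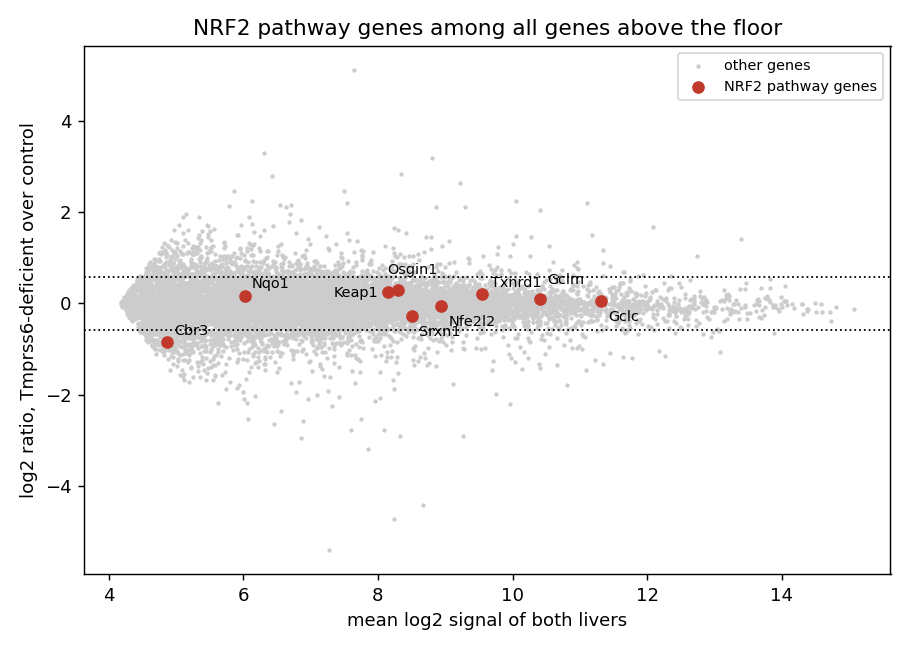
Log2 ratio against mean log2 signal for the 10243 genes measured in both livers, each by its brightest probe set, with the 9 NRF2 pathway genes in red and dotted lines at 1.5-fold. Cbr3, the dimmest of them, is the only one past a line.

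By their brightest sets, the partners that set NRF2 activity also read alike. Of 14 listed regulators, 13 were measured and all 13 lay within 1.5-fold, where 15.9% of all genes lay outside it. Their median log2 ratio was 0.069, and Rbx1 reached the floor in neither liver. Bach2 had -0.17 on its brightest set and 1.06 on another measured set. Gsk3b, a kinase that marks NRF2 for degradation, had the largest ratio at 0.48, with 5 of its 6 measured sets higher and the other at -1.01, a dim one that lay at the floor in the Tmprss6-deficient liver. Btrc, the F-box protein that recognises the marked form, had -0.25. The ubiquitin ligase gene Syvn1 and Sqstm1, whose product p62 binds KEAP1, had ratios of 0.29 and 0.24, Sqstm1 with its other set at -0.13. Bach1, a repressor at the same elements, read 549 in the Tmprss6-deficient liver and 631.5 in the control liver. The dimerisation partner Mafg had a ratio of 0.13 and the ligase scaffold Cul3 0.046, and some measured sets of Bach1, Mafg and Cul3 pointed the other way.

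Other genes known as NRF2 targets differed in both directions. Of 29 listed targets 24 were measured, with 2 past 1.5-fold upward and 4 downward, beside 7.51% and 8.42% of all genes, and their median log2 ratio was -0.12. Whether the list differs from other genes was not tested. The lower ones were all transferase genes: Gsta4 (291 in the Tmprss6-deficient liver and 751.5 in the control liver), Gsta2 (439 in the Tmprss6-deficient liver and 871 in the control liver), Gstp1 (12088 in the Tmprss6-deficient liver and 18843 in the control liver) and Gstm3 (120.6 in the Tmprss6-deficient liver and 187 in the control liver), with Gstp1 and Gstm3 named after their values were seen. They were 2.58-fold, 1.98-fold, 1.56-fold and 1.55-fold lower. As a group picked after its values were seen, the transferase genes had ratios below 0 for 8 of 8 measured (9 listed), from -1.37 to -0.22. Over all genes the share below 0 was 51.1%, but that choice bears on the count, and no conclusion is drawn from it. Gclc, Gclm and Nqo1 had the ratios of 0.053, 0.10 and 0.17 given above. Transferase genes of near-identical sequence may share probes, and 2 of 4 sets of Gstm1 pointed the other way. The higher ones were Me1, which makes NADPH from malate (2299 in the Tmprss6-deficient liver and 961.8 in the control liver, or 2.39-fold), and the export pump gene Abcc2, 1.57-fold higher. Hmox1, the stress-inducible heme oxygenase, read 122 in the Tmprss6-deficient liver and 109 in the control liver.

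Genes that make, recycle or use glutathione were mostly within 1.5-fold. Of 16 measured among 19 listed, 1 passed that threshold upward and 0 downward, beside 7.51% and 8.42% of all genes. Their median was -0.058. Chac1, which degrades glutathione and responds to amino acid stress, read 63.8 in the Tmprss6-deficient liver and 37 in the control liver, 1.72-fold higher. Gsr, the reductase that regenerates glutathione, read 371 in the Tmprss6-deficient liver and 542.5 in the control liver on its brighter set, a ratio of -0.55, with its other set at 0.33. Ggct and Gpx7 had ratios of 0.43 and 0.37.

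The thioredoxin and peroxiredoxin genes and the superoxide enzymes had ratios in both directions. Of 15 measured thioredoxin system genes among 17 listed, 2 passed 1.5-fold upward and 1 downward, beside 7.51% and 8.42% of all genes. Their median was -0.19. Txnrd3, a testis-rich reductase, was 2.31-fold lower (39.8 in the Tmprss6-deficient liver and 92.1 in the control liver), and the mitochondrial reductase gene Txnrd2 was 1.76-fold higher, each with measured sets in both directions. Msrb3, a methionine sulfoxide reductase, was 1.55-fold higher. The peroxiredoxin gene Prdx2 had a log2 ratio of 0.13 on its brighter set and -2.85 on the other. Txn1, which encodes thioredoxin, read 2504.5 in the Tmprss6-deficient liver and 3539 in the control liver, a ratio of -0.50, and its inhibitor Txnip had -0.51. Of 5 superoxide dismutase and catalase genes, all measured, 1 passed 1.5-fold upward and 0 downward, beside the same shares of all genes. Their median was -0.38. Extracellular Sod3 was 1.91-fold higher on its brighter set and 0.040 in log2 ratio on the other, Sod2, Sod1 and the copper chaperone Ccs had -0.44, -0.38 and -0.38, and Cat (catalase) had 0.12. Some sets of Sod1 and Sod2 pointed the other way.

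NADPH supply, a list that shares Me1, Pgd, Taldo1 and Tkt with the NRF2 targets above, had a median of -0.018 over 8 measured genes of 9 listed, with Me1 as the 1 higher and 0 lower. Idh1, Idh2 and H6pd had ratios of -0.34, 0.27 and 0.26. The aryl hydrocarbon receptor axis, which also acts on Nqo1, had 5 measured genes of 7, with 0 higher and 1 lower. Its median of -0.33 is the bound of a gene below the floor on 1 array (Cyp1b1). For both lists, the shares over all genes were 7.51% higher and 8.42% lower. Cyp1a2 read 1559 in the Tmprss6-deficient liver and 3663.5 in the control liver, 2.35-fold lower, and Cyp1a1 reached the floor in neither liver. Tiparp had a ratio of 0.583, short of the threshold, on 3 sets that all were higher, and Ahr had -0.48 on the brighter of its sets and 0.77 on the other.

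**Figure D5:**
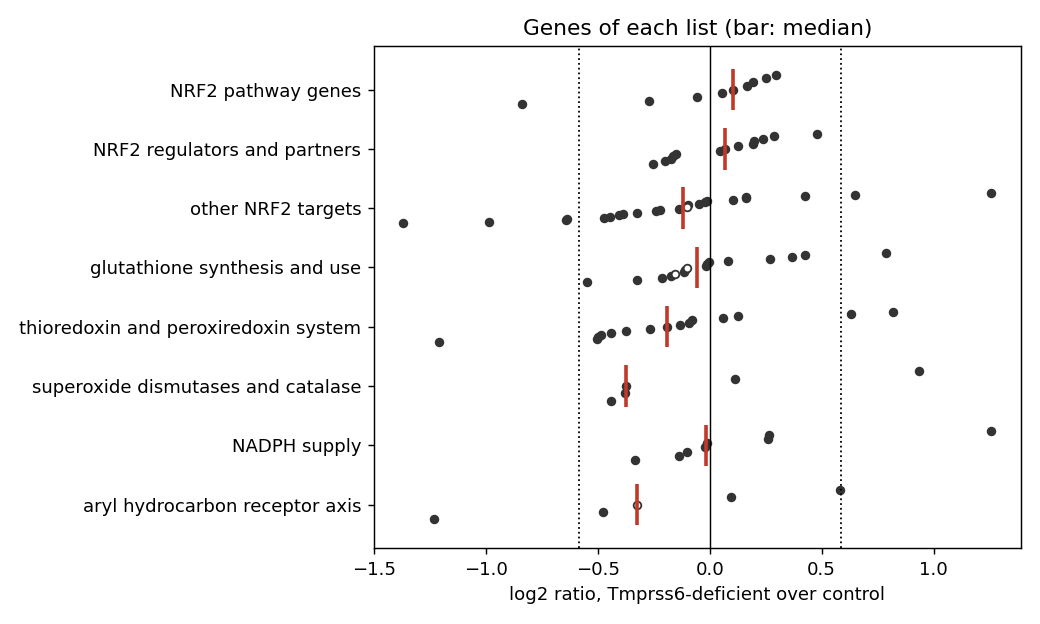
Log2 ratio (Tmprss6-deficient over control) of each measured gene in the NRF2 pathway and in 7 related lists, by brightest probe set, with red bars at list medians, open circles for bounds and dotted lines at 1.5-fold. The NRF2 pathway genes and the NRF2 regulators cluster near 0, with Cbr3 apart.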

How the data were processed

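Biotin-labelled RNA of 2 livers was hybridised to Affymetrix mouse arrays, per the labels' protocols. Each array was deposited as 1 intensity signal per probe set, and, per the submitters' processing notes, the authors used MAS5 for it, of unstated version and settings. The deposited signals run from 0 to 42541, and the arrays had the same mean after trimming 2% at each end, so scaling to it left them unchanged. MAS5 signals near background are noisy, detection calls were not used, and the floor stands in for them.

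The annotation gave 1 gene symbol for 34958 of 45101 probe sets and several for 932, which were not named; 9211 are not in it. Names were checked against RefSeq (GRCm38.p6), which changed 0 symbols. Signals were raised to the floor, log2 was taken, and a gene was represented by its probe set of highest mean log2 signal. A signal above the floor on 1 array gave a bound. Probe set spread was taken from the 2 brightest sets of 4367 genes, by the signal of the dimmer one. Python 3.11.15, pandas 2.3.3 and statsmodels 0.14.6 were used. The procedure was tested on simulated data.

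No test was possible with 1 array per group. The members and lists were chosen with earlier results of these data known. Named are all members, up to 4 genes of each list with the largest ratios, and Hmox1, Bach1, Mafg, Cul3, Gsr, Txn1, Cat, Sod1, Cbr1 and Ahr; others were named after their values were seen. Alternatives were median scaling, no scaling, quantile and loess normalization, a lower floor (30th percentile), a higher one (70th), adding the floor as a pseudocount, averaging a gene's sets, and sets without _x_at and _s_at or measured in both livers only.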

Additional observations from a re-analysis of the deposited data

How the results depend on the processing

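The median of the measured member genes stayed between 0.048 and 0.14 on the log2 scale under all 10 alternatives. None of the alternatives moved the median of all genes by more than 0.054. The upper end of 0.14 came with the higher floor (70th percentile), which left Cbr3 out. The count of member probe sets higher was 0, in place of 1, with median scaling, quantile normalization, loess and the floor as a pseudocount, and 2 with the lower floor (30th percentile). The count lower was 0, in place of 2, with the higher floor (70th percentile) and 1 with the pseudocount. Cbr3 ranged from -0.91 to -0.52 and did not reach the higher floor in either liver. With the mean of all its sets, Nfe2l2 was -0.57 and Srxn1 0.069. Among the lists, other NRF2 targets had 1 higher without _x_at and _s_at sets. Glutathione genes had 2 higher with the lower floor and 0 with the higher one or the pseudocount, and 1 lower with median scaling or the lower floor. Thioredoxin genes had 1 higher with median scaling, loess, the pseudocount or the mean of sets, and 2 lower with that mean, under which the superoxide list had 0 higher and a median of -0.16 and the aryl hydrocarbon receptor list a median of 0.13. The NADPH median was 0.23 without _x_at and _s_at sets. The second motif, chosen after the data were seen, was in 3 member genes, in place of 5. The causes were not tested. No paired analysis was possible because each group has 1 animal. Dim signals limit Cbr3, Nqo1 and the second sets of Nfe2l2 and Keap1.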
